A study of Mus musculus with 23 samples.

Results

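Megakaryocyte progenitors (MkP) from the bone marrow of mice carrying the V617F form of the kinase JAK2 were compared with those of wild-type (WT) mice, gene by gene. The comparison rests on 6 of the 23 RNA-seq libraries of the series, all made with SMART-Seq v2, 3 labelled SclCre;V617F (numbered 1, 2 and 3) and 3 labelled WT (numbered 30, 31 and 32). All mice were C57BL/6 and labelled female. Tamoxifen was given on 5 days to both genotypes, 12 weeks before the marrow was harvested, so the drug is shared and only the SclCre;V617F mice carry the transgene it activates. The labels do not say whether the WT mice carried the Cre, nor whether a library holds 1 animal or a pool. In the SclCre;V617F line the Cre is driven by elements of Scl (Tal1), a gene active in blood stem and progenitor cells. MkP were sorted as lineage-negative, Kit-positive, Sca-1-negative cells that carry both CD150 and CD41. Of 24454 genes in the count table, 14281 had enough counts to be tested.

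MkP are marrow progenitors committed to megakaryocytes, the large polyploid cells that shed platelets. Cytokine receptors of blood cells have no kinase of their own and signal through kinases such as JAK2 bound to their tails. JAK2 phosphorylates STAT5 and other STAT factors, whose targets include the feedback inhibitors of the SOCS family. The V617F change lies in the pseudokinase domain that restrains the enzyme, leaves JAK2 active without cytokine, and is the common driver of polycythaemia vera and essential thrombocythaemia. Megakaryocyte and erythroid progenitors arise close to each other in the blood hierarchy and share factors such as GATA1.

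The WT libraries held 30927779 to 41128677 counts and the V617F libraries 22143163 to 33847737. The V617F libraries nevertheless detected more genes, 14953 ± 281 against 11995 ± 491 (SD, n = 3 each, exact two-sided permutation p = 0.1, the smallest that 3 against 3 can give), and the difference was as large after thinning to equal depth (14758 against 11794 genes). It was smaller for genes with at least 5 counts (13784 against 11432) and for genes at 1 CPM (counts-per-million) or more (12047 against 10649). Of 9159 genes with a mean of at least 10 CPM (scaled to library size) over the 6 libraries, WT 30, 31 and 32 had 0.295%, 2.29% and 0.884% at 0, and the V617F libraries at most 0.0109%. Rank correlations (Spearman, over genes) were 0.972 to 0.991 between V617F libraries, 0.869 to 0.907 between WT libraries and 0.876 to 0.928 across genotypes. In a chi-square comparison every pair of one genotype differed by more than counting noise (22.9 to 415 per degree of freedom). V617F 1 and 2 were the closest pair (22.9, rank correlation 0.991). Separate preparations of one sample could also exceed counting noise, so this cannot show whether any library repeats another. All 6 were kept as single libraries. The labelled sex did not match the transcripts: the Y-linked gene Ddx3y stood at 29.5, 52.6 and 50.8 CPM in WT 30, 31 and 32 and at 39.1, 61.7 and 0.207 CPM in V617F 1, 2 and 3, while Xist was between 205 and 1053 CPM in all 6. V617F 3 was the one library close to 0 for Ddx3y. Counts of passing genes are given below with and without each library.

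**Figure D1:**
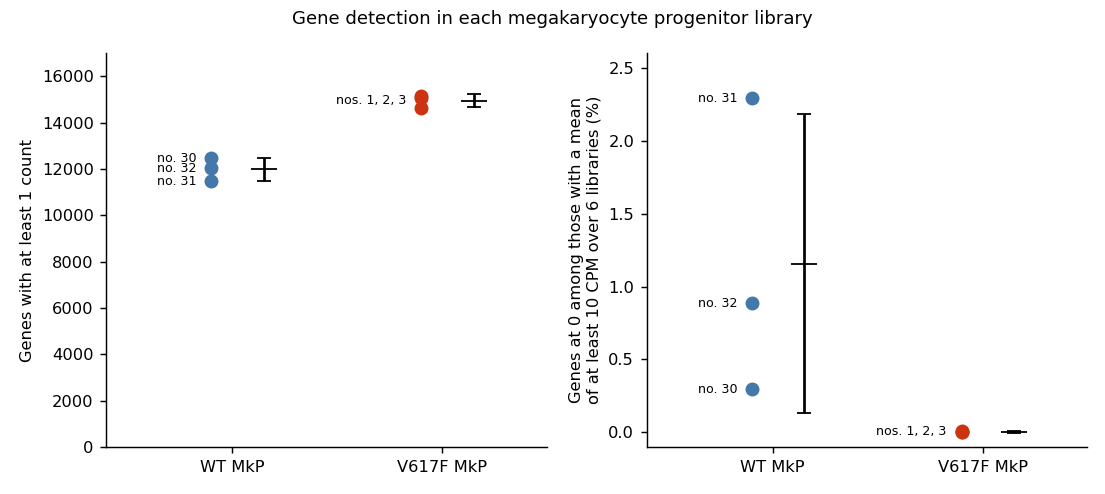
Genes with at least 1 count (left) and the percentage of genes with a mean of at least 10 CPM that stand at 0 (right), for each WT (blue) and V617F (red) MkP library. Bars give the mean ± SD of 3 libraries, and every V617F library lies above every WT library on the left.

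The mutated gene and the sort markers were read first. Jak2 (Entrez 16452, chromosome 19) stood at 43.4, 46.4 and 35.8 CPM in WT 30, 31 and 32 and at 102, 128 and 116 CPM in V617F 1, 2 and 3. The genotypes did not overlap, and the difference (log2 1.46 ± 0.38, SE) did not pass (edgeR adjusted p = 0.0757). The labels do not state whether transcripts of the transgene are counted under Jak2. The Cre driver gene Tal1 overlapped between genotypes, at 134, 140 and 115 against 138, 140 and 106 CPM. Itga2b, which encodes CD41, was at 1734, 1727 and 1400 CPM in WT and 1313, 1303 and 633 CPM in V617F, and it did not pass (edgeR adjusted p = 0.749). Kit and Slamf1 (CD150) were present in all 6 libraries, and Ly6a (Sca-1) was between 0.686 and 2.57 CPM. The megakaryocyte genes Pf4, Gp9, Gata1 and Fli1 had counts in every library, so the label held against its defining markers.

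V617F minus WT, 250 of 14281 genes passed edgeR's quasi-likelihood test at a Benjamini-Hochberg adjusted p under 0.05 (1.75%), 232 higher (1.62%) and 18 lower (0.126%). The genes were then split by how well they were measured. Among 9158 well-measured genes, those with a mean of at least 10 CPM over the 6 libraries and a count in both genotypes, 36 passed (0.393%), 20 higher (0.218%) and 16 lower (0.175%). Among 1426 genes with no count in any WT MkP library 171 passed (12.0%); a gene chosen for being at 0 in WT can only be higher. The remaining passing genes, 41 higher (1.12%) and 2 lower (0.0544%), were other genes under 10 CPM. The median log2 difference was 0.08 over all tested genes and -0.04 over well-measured ones. At an unadjusted p under 0.05, edgeR had 1753 of the 14281 genes higher and 434 lower. DESeq2 called 933 of all genes higher and 204 lower, and limma-voom 838 and 40. The counts given below for gene lists are to be read beside these totals. The split of well-measured calls moved with the method. It was 153 higher and 163 lower with DESeq2, 126 and 32 with limma-voom, and 74 and 145 in a fit of the 6 MkP libraries alone. A mean over the 6 libraries can also be reached through 1 genotype, with every library of the other genotype under 10 CPM. Below, Prickle1, Ccser2, Mapk8, Aak1, Pfkfb2 and Skil are among the genes that reach it through V617F. Sphk1, Ermap, Trib2, P2ry2, Atp1b2, Ctss, Pld4 and Cd74 are among those that reach it through WT. For such genes the split does not set low detection aside.

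**Figure D2:**
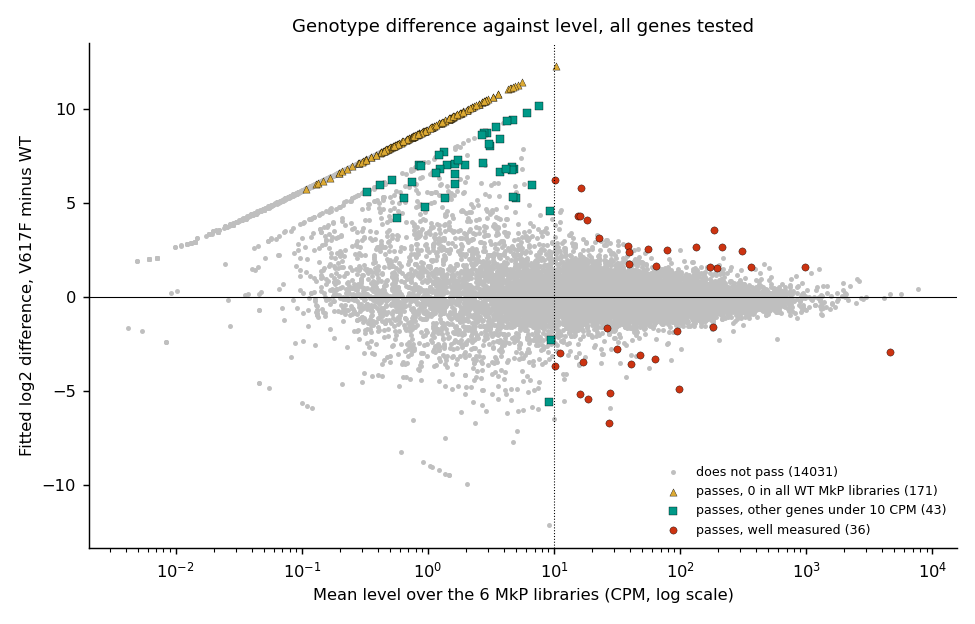
Fitted log2 difference (V617F minus WT MkP) against the mean level over 6 libraries in CPM on a log axis, for all 14281 genes tested. Right of the dotted line at 10 CPM the 36 passing genes (red circles) fall on both sides of 0; the 171 passing genes at 0 in all WT libraries (triangles) lie on the upper left edge, where the fitted value depends on the prior count.

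The lower genes included enzymes and membrane proteins of red cells. Car1 (Entrez 12346, chr3:14766216-14808368, minus strand in GENCODE vM21 on GRCm38), a carbonic anhydrase of red cells, stood at 174, 186 and 206 CPM in the WT libraries and at 1.98, 3.07 and 13.8 CPM in V617F 1, 2 and 3. Every WT library was above every V617F library, and Car1 fell 29.97-fold (log2 -4.91 ± 0.88, edgeR adjusted p = 0.0198). V617F 3 held the highest of the low values. Ermap, a membrane protein of erythroblasts that carries the Scianna blood group, stood at 46.3, 38.4 and 23.9 CPM in WT and at 0.43, 0.48 and 1.56 CPM in V617F (log2 -5.44 ± 1.21, edgeR adjusted p = 0.0439). Sphk1, which makes the lipid signal sphingosine-1-phosphate and is listed here with the erythroid genes although other cells use it too, stood at 18.9, 69.2 and 72.9 CPM in WT and at 0.129, 0.0739 and 1.3 CPM in V617F (log2 -6.71 ± 1.37, edgeR adjusted p = 0.0325). In bulk RNA, fewer cells of a type and less RNA per cell cannot be told apart.

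These were 3 of 27 erythroid genes tested to pass as lower, with 0 higher, against 0.126% lower among all genes, and 0 passed without V617F 1 or without V617F 2. The erythroid median was log2 -0.90, with 22 of 27 negative. Rhd, the Rhesus blood group antigen, was at 50.9, 26.5 and 88.0 CPM against 0.258, 0.111 and 2.36 CPM and did not pass (edgeR adjusted p = 0.0735). Klf1, the erythroid transcription factor, stood at 188, 139 and 127 CPM in WT and 34.3, 70.4 and 59.1 CPM in V617F, without overlap (edgeR adjusted p = 0.201). Other members overlapped or lay the other way. Hemgn, a nuclear protein of red cell precursors, stood at 126, 94.0 and 116 CPM in WT and 114, 106 and 109 CPM in V617F. Slc25a37, the mitochondrial iron importer, was higher in each V617F library (38.9, 29.2 and 35.96 against 1.51, 28.4 and 12.0 CPM, edgeR adjusted p = 0.503). The summed level of the list was 3277 to 3588 CPM in WT and 2026 to 2509 CPM in V617F. DESeq2 called 8 of the 27 lower and 1 higher, and limma-voom 4 lower and 0 higher. Alas1, the first enzyme of haem synthesis outside the red cell lineage, fell as well, from 231, 333 and 251 CPM to 75.2, 71.9 and 123 CPM (log2 -1.59 ± 0.35, edgeR adjusted p = 0.0437).

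A second group of lower genes is known from granulocytes and monocytes. Mpo (Entrez 17523, chr11:87793581-87804413, plus strand), the myeloperoxidase of neutrophil granules, was at 9874, 5799 and 8636 CPM in WT and at 805, 663 and 1717 CPM in V617F. It fell 7.63-fold and every WT library stood above every V617F library (log2 -2.93 ± 0.62, edgeR adjusted p = 0.0367). Hk3, the hexokinase of myeloid cells, stood at 69.4, 119 and 68.2 CPM in WT and at 7.35, 8.87 and 13.995 CPM in V617F (log2 -3.09 ± 0.48, edgeR adjusted p = 0.00964). Ctss, the lysosomal protease cathepsin S, was at 17.4, 25.2 and 16.5 CPM in WT and 2.41, 1.96 and 3.22 CPM in V617F (log2 -2.96 ± 0.57, edgeR adjusted p = 0.0257). Both are low in all 3 V617F libraries. Igsf6, an immunoglobulin-like receptor of myeloid cells, was at 89.6, 79.5 and 175 CPM in WT and at 9.15, 5.03 and 20.6 CPM in V617F (edgeR adjusted p = 0.0387). Pld4, an exonuclease of phagocytes and dendritic cells, was at 20.1, 23.4 and 50.3 CPM in WT and 2.45, 3.21 and 2.75 CPM in V617F (edgeR adjusted p = 0.0325).

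Of 18 granulocyte markers tested, Mpo alone passed with edgeR, while 14 were lower and 2 higher at an unadjusted p under 0.05, and the median was log2 -2.19. Over all 14281 genes 434 were lower and 1753 higher at that unadjusted p. The 2 higher markers were low in level. Gfi1, a transcription repressor, was at 0 in WT and at 0.816, 0.037 and 1.56 CPM in V617F, and Retnlg at 0, 0.299 and 0 against 1.03, 2.40 and 0.945 CPM. Elane, the neutrophil elastase, stood at 1126, 674 and 1093 CPM in WT and 155, 101 and 347 CPM in V617F (edgeR adjusted p = 0.130). Ltf, the lactoferrin of secondary granules, stood at 147, 196 and 189 CPM against 38.9, 31.3 and 7.44 CPM (edgeR adjusted p = 0.0627). The summed level of these markers was 8621 to 12405 CPM in WT and 1184 to 2680 CPM in V617F. DESeq2 called 10 of the 18 lower and 2 higher, and limma-voom 4 lower and 2 higher. Of 15 monocyte and macrophage markers 0 passed as lower and 1 as higher with edgeR, 3 were lower and 1 higher at an unadjusted p under 0.05, and DESeq2 called 2 lower and 1 higher and limma-voom 1 in each direction. The monocyte factor Irf8 was at 119, 84.8 and 116 CPM in WT and 5.8, 8.06 and 9.33 CPM in V617F (edgeR adjusted p = 0.136). Mast cell and basophil markers had a median of log2 -1.78 over 8 genes, with 0 passing with edgeR, 2 lower at an unadjusted p under 0.05, 2 lower with DESeq2 and 1 with limma-voom. Lymphoid markers had a median of log2 -1.97 over 11 genes, with 3 lower and 2 higher at an unadjusted p under 0.05, 3 lower and 1 higher by DESeq2 and 3 lower by limma-voom. Among them Dntt, the template-free DNA polymerase of early lymphoid cells, fell from 26.5, 16.6 and 10.8 CPM to 0.258, 0.665 and 0.177 CPM (edgeR adjusted p = 0.0403). Whether other cells in the gate had a part in these differences was not tested.

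The promoters of 4 lower genes are shown so that the letters known to be bound by GATA and ETS factors, regulators of the red cell and myeloid lineages, can be read in genes that fell. The sequences are the 250 bases before the RefSeq start (GRCm38.p6), read 5′ to 3′ in the direction of the gene. Capitals mark the letters bound by GATA factors (AGATAA or AGATAG, and with another first base TGATAA or TGATAG) in Ermap (chr4:119189996-119190245, minus strand). In Mpo (chr11:87793534-87793783, plus strand), Hk3 (chr13:55021386-55021635, minus strand) and Ctss (chr3:95526536-95526785, plus strand) they mark GAGGAA, the core bound by ETS factors such as PU.1. Both strands were searched, and the motifs do not overlap each other here.
Ermap: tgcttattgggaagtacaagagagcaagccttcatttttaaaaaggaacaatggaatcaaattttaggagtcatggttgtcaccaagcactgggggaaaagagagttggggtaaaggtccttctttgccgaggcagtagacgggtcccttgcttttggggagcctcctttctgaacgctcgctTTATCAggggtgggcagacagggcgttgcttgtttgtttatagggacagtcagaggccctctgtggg
Mpo: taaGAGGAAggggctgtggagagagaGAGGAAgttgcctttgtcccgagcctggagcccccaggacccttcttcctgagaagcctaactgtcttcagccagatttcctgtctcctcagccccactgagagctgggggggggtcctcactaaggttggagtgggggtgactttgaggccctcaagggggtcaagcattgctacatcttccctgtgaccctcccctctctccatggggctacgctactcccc
Hk3: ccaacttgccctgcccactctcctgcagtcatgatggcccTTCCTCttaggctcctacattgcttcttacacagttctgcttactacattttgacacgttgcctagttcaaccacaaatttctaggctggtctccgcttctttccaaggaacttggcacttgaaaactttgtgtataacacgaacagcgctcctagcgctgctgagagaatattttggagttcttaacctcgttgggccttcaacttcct
Ctss: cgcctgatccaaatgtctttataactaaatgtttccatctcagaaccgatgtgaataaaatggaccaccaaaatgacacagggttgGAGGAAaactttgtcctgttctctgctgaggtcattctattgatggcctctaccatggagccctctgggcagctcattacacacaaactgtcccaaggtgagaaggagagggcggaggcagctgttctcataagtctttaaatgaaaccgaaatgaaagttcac
Mpo held 2 matches of GAGGAA, starting 247 and 224 bases before the RefSeq start, and Hk3 and Ctss 1 each. The GENCODE start of Mpo given above, 87793581, lies inside the printed window. Part of that window is therefore within the gene as GENCODE places it. Of the 16 lower genes 12 were in the promoter table and 5 of these held GAGGAA (41.7%), against 3 of 15 of the higher genes and 25.9% of 27025 genes. The GATA letters were in 3 of 12 lower (25.0%) and 4 of 15 higher genes (26.7%), against 29.7% of all. The STAT letters TTCNNNGAA were in 2 of 12 lower (16.7%) and 1 of 15 higher genes (6.7%), against 8.1%. A match describes the letters of the window and is no evidence of binding.

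The other lower genes have varied known roles. Cd74, the invariant chain that chaperones MHC class II, stood at 77.4, 46.2 and 104 CPM in WT and at 6.62, 5.03 and 7.17 CPM in V617F (log2 -3.59 ± 0.39, edgeR adjusted p = 0.00339). It was 1 of 10 class II genes to pass with edgeR and limma-voom, and DESeq2 called 2 lower; the beta chain gene H2-Ab1 was at 128, 111 and 108 CPM against 57.3, 62.2 and 105 CPM (edgeR adjusted p = 0.559). Trib2, a pseudokinase that promotes degradation of C/EBP alpha, fell from 32.03, 10.2 and 51.3 CPM to 0.645, 1.48 and 0.472 CPM. P2ry2, a receptor for extracellular nucleotides, fell from 16.5, 30.4 and 10.02 CPM to 1.16, 2.40 and 0.886 CPM. Atp1b2, a beta subunit of the sodium pump, fell from 45.5, 86.3 and 29.1 CPM to 1.33, 1.55 and 1.71 CPM. In each of these the V617F libraries lay within a few CPM of each other and WT varied more. Cotl1, an actin-binding protein, fell from 157, 145 and 139 CPM to 43.4, 56.2 and 27.7 CPM. Tgfbi, a secreted matrix protein, fell from 63.7, 70.7 and 31.1 CPM to 4.86, 13.1 and 6.70 CPM, and Mettl7a1 fell by 1.66 on the log2 scale. The edgeR adjusted p of these 6 genes lay between 0.0301 and 0.0485.

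Of 26 platelet surface receptors 0 passed in either direction with edgeR, with 5 higher and 1 lower at an unadjusted p under 0.05, and DESeq2 called 1 and limma-voom 2 higher. Over all 14281 genes 1753 were higher and 434 lower at that unadjusted p. The median was log2 0.07. Members of one complex differed from each other. Gp1bb, the beta chain of the receptor for von Willebrand factor, was at 43.8, 181 and 23.9 CPM in WT and at 391, 288 and 382 CPM in V617F, without overlap (log2 2.09 ± 0.76, edgeR adjusted p = 0.179). Gp1ba, the alpha chain of the same complex, overlapped, at 141, 171 and 190 against 160, 125 and 118 CPM.

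Of 28 granule and secretion genes 0 passed with edgeR, DESeq2 or limma-voom, and 1 was lower and 0 higher at an unadjusted p under 0.05. Pf4 (Entrez 56744, chromosome 5), the chemokine of alpha granules, was at 1334, 1559 and 1512 CPM in WT and 2685, 2034 and 2591 CPM in V617F, without overlap (edgeR adjusted p = 0.335). Vwf, the von Willebrand factor they store, overlapped, at 384, 426 and 263 against 425, 374 and 345 CPM (edgeR adjusted p = 0.964). Per kilobase of transcript Pf4 was the most abundant of these genes, at 2497 CPM per kb in WT and 4144 in V617F. F13a1, the transglutaminase that crosslinks fibrin, went the other way, from 123, 94.9 and 244 CPM to 13.8, 9.24 and 21.4 CPM (log2 -3.38 ± 1.35, edgeR adjusted p = 0.234).

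Among 28 genes of the platelet cytoskeleton Rac1 alone passed with edgeR, with 5 higher and 0 lower at an unadjusted p under 0.05, and DESeq2 and limma-voom each called 2 higher. The 5 stand beside 1753 of all 14281 genes higher at that unadjusted p. Rac1 (Entrez 19353, chr5:143503634-143528036, minus strand), a small GTPase that drives lamellipodia and platelet spreading, stood at 23.9, 37.1 and 26.1 CPM in WT and at 344, 373 and 308 CPM in V617F, 11.8-fold higher (log2 3.56 ± 0.43, edgeR adjusted p = 0.00339). The libraries of each genotype lay close together and far from the other genotype. Relatives of Rac1 did not pass. Rac2, the GTPase of blood cells, was at 434, 515 and 425 CPM in WT and 282, 329 and 291 CPM in V617F (edgeR adjusted p = 0.568). Cdc42 was at 645, 509 and 638 CPM in WT and 731, 747 and 809 CPM in V617F (edgeR adjusted p = 0.715). Tubb1, the beta tubulin of the platelet rim, had no count in WT and 4.04, 3.03 and 4.81 CPM in V617F (edgeR adjusted p = 0.0771). Of 20 megakaryocyte transcription factors 1 passed with edgeR, as higher, and 0 passed when any 1 of the 6 MkP libraries was left out; DESeq2 called 2 and limma-voom 1 higher. Gata1, the factor shared with red cells, did not pass and stood at 442, 373 and 427 CPM in WT and 275, 328 and 218 CPM in V617F (edgeR adjusted p = 0.692). Fli1, the ETS factor of megakaryocytes, overlapped, at 455, 485 and 269 against 503, 428 and 373 CPM (edgeR adjusted p = 0.978).

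**Figure D3:**
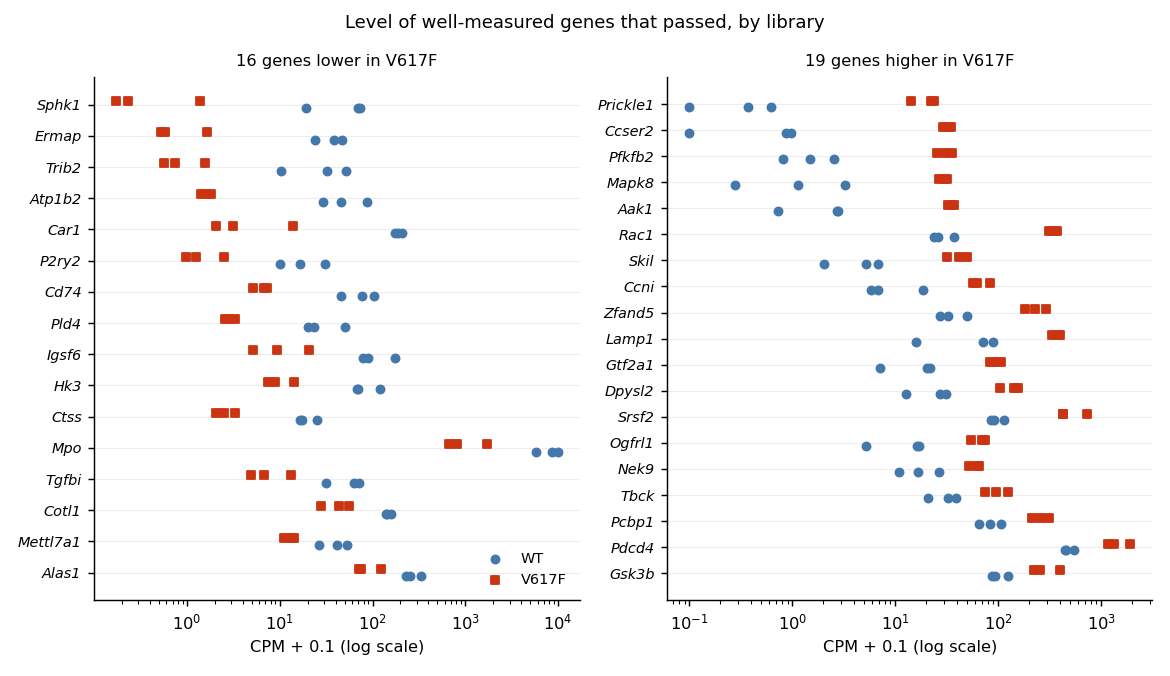
CPM plus 0.1, on a log axis, of the 16 lower (left) and all but 1 of the 20 higher (right) well-measured genes that passed, for each WT (blue circles) and V617F (red squares) MkP library. The genotypes do not overlap in these genes, as in 29.6% of all well-measured genes.

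Socs2, a feedback inhibitor induced by STAT5, was at 7.89, 22.6 and 17.6 CPM in WT and 52.6, 49.1 and 55.1 CPM in V617F. The genotypes did not overlap, and the difference fell just short of the threshold with edgeR (log2 1.70 ± 0.40, adjusted p = 0.0545); DESeq2 and limma-voom both called it higher. Cish, a relative of Socs2, was at 37.3, 0 and 0 CPM in WT and 18.005, 24.1 and 11.6 CPM in V617F, with WT 30 above all V617F libraries. Socs3 and Id1 passed from 0 in WT, to 5.37, 2.03 and 0.384 CPM and to 2.66, 2.48 and 0.531 CPM. With edgeR these were 2 of 20 targets, with 0 lower, against 1.62% of all genes higher, and the list median was log2 0.18. Both are genes at 0 in all WT libraries, a class of which 12.0% passed, and 0 of the 15 well-measured targets passed. DESeq2 called 3 higher and 1 lower, limma-voom 3 higher, and a fit of the MkP libraries alone 1 higher and 2 lower; without V617F 1 or without V617F 2 edgeR called 0. Growth genes of the list lay the other way. Myc stood at 763, 815 and 839 CPM in WT and 515, 356 and 477 CPM in V617F (edgeR adjusted p = 0.323). Ccnd1, cyclin D1, stood at 59.7, 66.0 and 81.0 CPM in WT and 28.8, 31.7 and 29.5 CPM in V617F (edgeR adjusted p = 0.0873). DESeq2 called it lower, and so did edgeR on the MkP libraries alone. Of 16 receptors, kinases and STATs 0 passed, with 1 higher and 2 lower at an unadjusted p under 0.05, and DESeq2 called 1 in each direction and limma-voom 1 higher. Jak2 had the largest positive difference among them, and 14 of the 16 were negative (median log2 -0.44), including Stat5a at 161, 215 and 152 against 112, 143 and 85.7 CPM.

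Cell cycle genes differed little and mostly in one direction. Of 29 mitosis genes 27 were negative (median log2 -0.33) and 0 passed with edgeR, 1 at an unadjusted p under 0.05, with 1 lower by DESeq2 and 0 by limma-voom. Their summed level was 6897 to 7015 CPM in WT and 5363 to 5623 CPM in V617F. Of 32 DNA replication genes 26 were negative (median log2 -0.34) and 0 passed, 2 at an unadjusted p under 0.05, with 1 lower by DESeq2 and 0 by limma-voom. Pold1, the catalytic subunit of polymerase delta, was at 482, 460 and 449 CPM in WT and 199, 205 and 91.5 CPM in V617F (edgeR adjusted p = 0.222). The proliferation antigen Mki67 went the other way, at 307, 372 and 338 against 406, 494 and 457 CPM (edgeR adjusted p = 0.644). Cdk6, the kinase partner of D cyclins, was also higher in each V617F library (1307, 1210.1 and 2100.4 against 545, 827 and 512 CPM, edgeR adjusted p = 0.111).

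**Figure D4:**
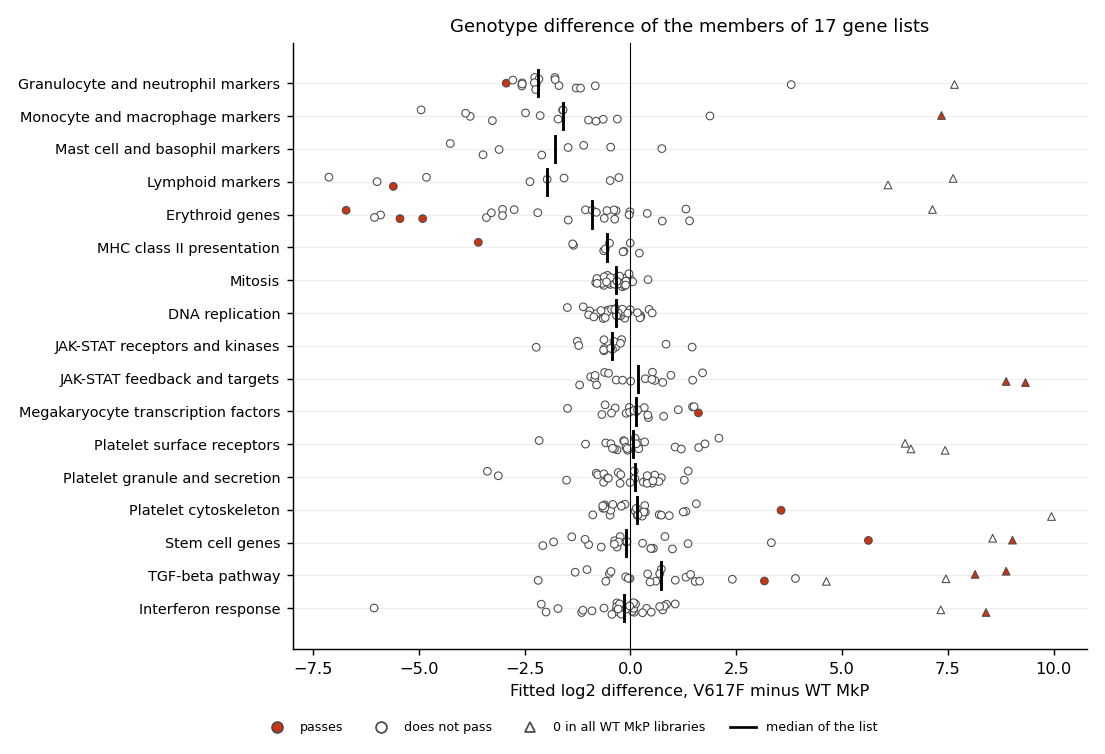
Fitted log2 difference (V617F minus WT MkP) of the tested members of 17 gene lists, one symbol a gene; filled symbols passed, triangles had no count in any WT library, and black bars are medians. The granulocyte, monocyte, mast cell, lymphoid and erythroid medians lie between -2.19 and -0.90, and those of the platelet lists between 0.07 and 0.15.

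Rac1 was 1 of the 20 higher well-measured genes, and several others encode signalling and RNA-handling proteins. Srsf2, a splicing factor that is mutated in myelodysplasia, was at 84.6, 114 and 92.0 CPM in WT and at 427, 423 and 722 CPM in V617F (log2 2.44 ± 0.35, edgeR adjusted p = 0.00772). Dpysl2, a microtubule-binding protein, was at 30.7, 26.9 and 12.6 CPM against 142, 104 and 156 CPM (log2 2.52 ± 0.39, edgeR adjusted p = 0.00964). Rac1, Srsf2, Dpysl2 and, among the lower genes, Cd74 passed without any single MkP library and in all 9 other settings tried.

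Several of them encode kinases. Mapk8 (JNK1), a stress kinase, rose from 0.177, 3.17 and 1.04 CPM to 32.1, 26.7 and 29.6 CPM. Gsk3b, a kinase of the WNT and insulin pathways, rose from 87.3, 123 and 92.8 CPM to 257, 223 and 403 CPM. Aak1, which regulates clathrin uptake, rose from 2.70, 2.59 and 0.620 CPM to 32.1, 37.4 and 34.4 CPM. In WT, Mapk8 and Aak1 were at most 3.17 CPM, and Gsk3b was at least 87.3 CPM. Nek9, a mitotic kinase, rose from 16.7, 10.8 and 26.7 CPM to 52.6, 65.7 and 64.0 CPM. Pfkfb2, which makes the activator of glycolytic phosphofructokinase, rose from 1.39, 2.47 and 0.718 CPM to 25.5, 35.8 and 30.8 CPM.

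The remaining higher genes have varied known roles. Pdcd4, an inhibitor of translation, rose from 446, 550 and 454 CPM to 1331, 1169 and 1922 CPM. Pcbp1, an RNA-binding protein that also carries iron, rose from 107, 65.0 and 83.1 CPM to 259, 314 and 212 CPM. Skil, which restrains SMAD signalling, rose from 6.68, 1.92 and 5.06 CPM to 49.4, 31.9 and 41.3 CPM. All 3 were separated by genotype, as were all 232 higher and 18 lower genes that passed. Of all 14281 genes tested 4433 were separated, and 4183 of these did not pass. Separation is therefore not specific to the genes that passed. Gtf2a1, a subunit of the general factor TFIIA, rose from 20.1, 21.8 and 7.05 CPM to 106, 82.8 and 95.8 CPM. Lamp1, the major glycoprotein of the lysosome membrane, rose from 15.9, 88.1 and 71.2 CPM to 395, 381 and 334 CPM, and WT 30 was the lowest. Zfand5, a zinc finger protein that activates the proteasome, rose from 27.3, 49.9 and 32.1 CPM to 288, 227 and 182 CPM. Prickle1, a planar polarity protein, and Ccser2 were close to 0 in WT (at most 0.522 and 0.883 CPM) and between 14.2 and 35.0 CPM in V617F. Ccni, Ogfrl1 and Tbck were also higher, at log2 2.71, 2.38 and 1.67. Nek9, Ogfrl1 and Tbck each passed in 4 of 9 other settings and in 1 of 6 single-library omissions. Pcbp1 passed in 6 of 9 and in 0 of 6. Over the 16 genes from Mapk8 to Tbck the edgeR adjusted p lay between 0.0157 and 0.0485. The transcripts of the higher genes had a median length of 5596 bases, against 2421 for the lower and 2890 for all well-measured genes; whether length had a part was not tested.

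The 171 genes that passed from 0 in all WT libraries were low in V617F as well, with means of 0.217 to 20.8 CPM and a median of 1.78 CPM. Only 3 had a mean of 10 CPM or more. Their fold is a lower bound set against a floor of 3 counts per WT library. Tjp1, a scaffold of tight junctions, was at 21.4, 26.1 and 14.9 CPM in V617F, at least 251-fold higher. Fmnl3, a formin that elongates actin, was at 17.4, 11.9 and 4.19 CPM (at least 135-fold), and Gnat2, a transducin subunit of cone photoreceptors, at 9.71, 8.02 and 13.1 CPM (at least 124-fold). Slc17a8, a vesicular glutamate transporter, was at 14.7, 5.88 and 9.12 CPM (at least 119-fold), and Thbs2, a matrix thrombospondin, at 16.6, 7.17 and 4.67 CPM (at least 114-fold). Hic2, Snx20, Evc, Hivep2 and Mpdz were next, at least 79.6-fold above the floor. Tjp1 and Slc17a8 were called higher in both CD41 fractions of stem cells as well, Tjp1 at log2 2.82 and 2.38 and Slc17a8 at log2 3.15 and 3.35, from WT libraries in which they were detected. Fmnl3, Gnat2 and Thbs2 were called in neither. Of all 171 genes, 8 were called higher and 13 lower in the CD41-negative fraction. In the CD41-positive fraction 3 were called higher and 5 lower.

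The mirror class was small. Only 21 tested genes had no count in any V617F library, and 0 passed with edgeR, 11 at an unadjusted p under 0.05, 6 with DESeq2 and 1 with limma-voom. The classes also differed at equal level. Of 1866 genes with a V617F mean of 1 to 5 CPM, 307 (16.5%) were at 0 in all WT libraries, and of 1519 genes at that level in WT, 19 (1.25%) were at 0 in all V617F libraries. Between 5 and 10 CPM the shares were 2.002% and 0.177%. All 171 genes had a count in WT CD41-negative and WT CD41-positive stem cells, 160 of them at a mean of 1 CPM or more in the latter, and 13 (7.60%) were also at 0 in all WT long-term stem cell (LT-HSC) libraries. The level of detection in the WT MkP libraries and the genotype cannot be told apart in these 6 libraries.

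Genes of other programmes passed mostly from this class. In the TGF-beta list 3 of 26 were higher with edgeR (median log2 0.71), against 1.62% of all genes: Skil, the receptor gene Acvr1 and Id1, both of the last from 0 in WT. The list held 4 genes at 0 in all WT libraries, a class of which 12.0% passed. The count was 0 without V617F 1 or without V617F 2, 1 without V617F 3 or WT 32, and 5 without WT 30, and Acvr1 did not pass when any 1 of the 6 was left out. Ski, a relative of Skil, was at 13.9, 13.7 and 9.18 against 39.8, 42.5 and 32.1 CPM (edgeR adjusted p = 0.193). In the stem cell list 2 of 24 were higher with edgeR, Fgd5 and Procr, at V617F levels of 1.81 to 2.54 and 0.502 to 0.85 CPM. The list median was log2 -0.09, with 13 of 24 negative, and 0 of its 17 well-measured members passed. Mecom and Hlf overlapped between genotypes. In the interferon list Ifit3 was higher (1.2, 0.739 and 2.13 CPM from 0) and 20 of 36 were negative. In the endothelial and stromal list Alpl was higher (0.688, 1.66 and 1.42 CPM from 0), and the summed level was 22.7 to 57.4 CPM in WT and 35.0 to 40.2 CPM in V617F. The monocyte marker Cd14 passed as well, at 0.773, 0.406 and 0.768 CPM from 0.

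The 36 well-measured genes were then set beside the same genotypes in 3 stem cell populations of the series, LT-HSC (SMART-Seq v2) and CD41-negative and CD41-positive HSC (SMART-Seq v4). No control library is shared, but LT-HSC and MkP share the protocol, and in LT-HSC the V617F mice are labelled male and the WT mice female. The WT LT-HSC libraries are also numbered 30, 31 and 32. Detection differed by genotype in LT-HSC too, with a mean of 15547 genes in V617F and 13365 in WT. Among the genes with a mean of at least 10 CPM in MkP, 0.0437% and 0.717% stood at 0 there on average. In LT-HSC 0.063% of all genes passed, 0.028% higher and 0.035% lower. In CD41-negative HSC 5.48% were higher and 7.94% lower, and in CD41-positive HSC 0.221% were higher and 0.94% lower. Of the 16 lower genes 16 were negative in LT-HSC, 9 in the CD41-negative fraction and 12 in the CD41-positive one. Car1, Ermap, Sphk1, Trib2 and Cd74 were called lower in both CD41 fractions, with Car1 at log2 -5.40 and -4.54 there (edgeR adjusted p = 6.35e-04 and 0.00427). Tgfbi was called higher in CD41-negative HSC, at log2 0.59. Hk3, Ctss, Igsf6, Pld4 and Mpo passed in neither CD41 fraction, with Mpo at log2 -0.19 and 3.29 (edgeR adjusted p = 0.915 and 0.518).

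Of the 20 higher genes 18 were positive in LT-HSC, where Rac1, Lamp1 and Zfand5 were called, but 11 in the CD41-negative fraction and 9 in the CD41-positive one. Rac1 was at log2 3.56 in LT-HSC, from 23.1 to 272 CPM, and at 0.05 in the CD41-negative fraction (edgeR adjusted p = 0.835). In the CD41-positive fraction its log2 difference was within 0.01 of 0 (edgeR adjusted p = 0.998). Ccser2 and Dpysl2 were called higher in CD41-negative HSC, at log2 0.56 and 0.46. Skil was the one gene of the 20 called higher in both CD41 fractions, at log2 1.48 and 1.02 (edgeR adjusted p = 3.90e-04 and 0.0150). The sign was that of MkP for 61.4% of all well-measured genes in LT-HSC, 57.3% in the CD41-negative and 54.1% in the CD41-positive fraction. Of the 171 genes from 0 in WT, 92 (53.8%), 61 (35.7%) and 58 (33.9%) were positive there, against 47.4%, 50.1% and 55.9% of all genes tested. Protocol and population differ together between these sets and cannot be told apart. The part of gene detection in the signs shared by MkP and LT-HSC was not tested.

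**Figure D5:**
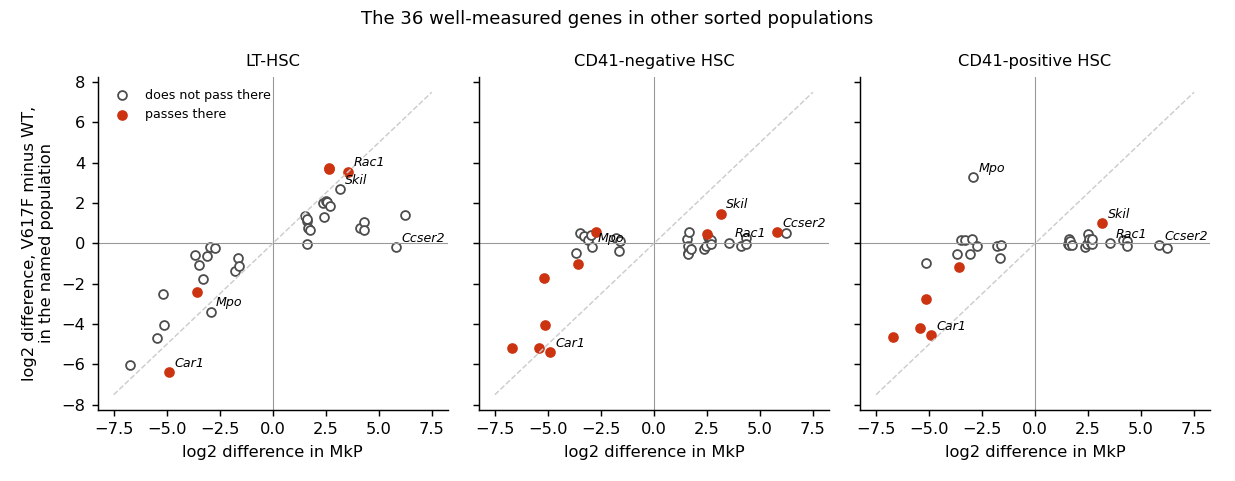
Log2 difference (V617F minus WT) of the 36 well-measured genes in LT-HSC, CD41-negative and CD41-positive HSC (vertical axes) against MkP (horizontal axis); filled symbols passed in the named population and the dashed line marks equal differences. Car1 lies between -6.38 and -4.54 in the 3 panels, and the higher genes other than Skil lie between -0.51 and 0.56 in the CD41 fractions.

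The difference between the MkP and LT-HSC genotype effects was tested in the same fit. It passed for 65 of 14281 genes (0.455%), 61 higher in MkP and 4 lower (0.028%), and 52 of the 61 were genes at 0 in all WT MkP libraries. The count was 0 without LT-HSC V617F 6, 7 or 8, between 76 and 187 without 1 WT LT-HSC library, 15, 8 and 22 without MkP V617F 1, 2 or 3, and 219, 117 and 141 without MkP WT 30, 31 or 32. Of the 36 genes 0 passed, with 7 higher and 6 lower at an unadjusted p under 0.05, and DESeq2 called 7 and limma-voom 1. Ccser2 had the smallest adjusted p among them (log2 6.01, edgeR adjusted p = 0.0601). It was at 0.883, 0.773 and 0 CPM in WT MkP but at a mean of 64.2 CPM in WT LT-HSC.

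Single libraries carried weight. Without V617F 1, 2 or 3 the count of passing genes fell from 250 to 52, 46 and 91, and that of well-measured genes from 36 to 4, 6 and 9. Without WT 30, 31 or 32 the counts were 415, 323 and 283, and 81, 75 and 53 for well-measured genes. Of the latter 63, 59 and 41 were higher and 18, 16 and 12 lower. Car1 did not pass without V617F 1 or 2, Mpo without V617F 1, 2 or 3 or WT 30 or 32, and Ermap when any 1 of the 6 was left out (highest edgeR adjusted p = 0.0919, 0.161 and 0.177), with the log2 difference negative each time.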

How the data were processed

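The values analysed are raw read counts per gene deposited by the authors. Per the submitters' processing notes, STAR 2.5.2a, the mm10 build, R 3.4.2 and limma were used; the counting tool and annotation are not given in the sources used here. Genes carry Entrez identifiers, and 11 tested without a symbol were kept. The 12 SMART-Seq v2 libraries were fitted together in edgeR 4.0.16 (R 4.3.3; filterByExpr, TMM scaling, 1 mean per group, quasi-likelihood test, Benjamini-Hochberg adjustment), and the 11 v4 libraries separately. CPM values use TMM-scaled library sizes. The SE beside a log2 difference was derived from the test. It is the size of that difference divided by the square root of the quasi-likelihood F statistic. Folds from 0 use a floor of 3 counts per library, which covers counting error only. Alternatives were DESeq2 1.42.0, limma-voom 3.58.1, other scalings and filters, thinning and single-library omissions. The labels do not say that replicates are separate animals, so p-values rest on the spread between libraries, which may not be that between animals. In the main fit this spread was estimated over all 12 SMART-Seq v2 libraries, LT-HSC as well as MkP.

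The members, gene lists and tests were chosen with earlier results of these data known. Genes were named by rule: the 12 largest well-measured changes per direction, the 10 highest from 0 in WT, up to 4 per list by adjusted p and 5 per direction of the difference from LT-HSC, beside a small fixed set. Other genes were named after their values were seen. The edgeR fit was also run on simulated data to check the code, and no result given here rests on that run. A few genes are not reported here by name, and 1 of them is left out of the plot of levels by library.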

Additional observations from a re-analysis of the deposited data

Results flagged for a closer look

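The genotype effect differed between MkP and LT-HSC by edgeR's test of the difference for 65 genes, 52 of them at 0 in all WT MkP libraries, and for 0 when LT-HSC V617F 6, 7 or 8 was left out. Values are the MkP effect minus the LT-HSC effect (log2), fitted values that depend on the prior count where a group is at 0. It was positive for Fmnl3 (10.54), Gnat2 (11.94), Mpdz (10.84), Krtcap3 (11.30), Lmbr1l (10.97), Mageh1 (11.11), P4htm (11.15), Ifit3 (10.01), Fgd5 (9.21) and Procr (5.92). It was negative for Dntt (-11.39) and Ltbp1 (-9.34). It was also positive for Xist (5.87), and in LT-HSC the labelled sex and the genotype coincide, so these cannot be told apart.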

How the results depend on the processing

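The counts of passing genes were 250 in all, 36 well measured, 171 from 0 in WT, and 65 for the MkP against LT-HSC difference. DESeq2 gave 1137, 316, 564 and 523, and limma-voom 878, 158 and 489 for the first 3. With the replicate block limma-voom gave 874, 155 and 489. The WT numbers recur in MkP and LT-HSC, but residuals of equal-numbered libraries correlated at -0.0381, -0.00584 and 0.0175, so the numbers were not taken as pairs. A fit of the 6 MkP libraries alone gave 762, 219 and 474. A minimum of 5 CPM in 3 libraries left 101 genes from 0 in WT, and thinning to one depth left 106, and 39 for the MkP against LT-HSC difference. Counting as well measured only genes from 50 CPM left 16. Leaving out 1 library moved the 4 counts between 46 and 415, 4 and 81, 34 and 119, and 0 and 219. The difference from LT-HSC fell to 0 without LT-HSC V617F 6, 7 or 8. The cause was not tested. Of the named genes' values under alternatives 1819 kept direction and call, 161 lost the call and 71 gained it. Another 11 values, of 6 genes that did not pass, changed sign or fell to 0. Flt3 was at log2 0.19 with limma-voom and 0.20 with the replicate block. Leaving out 1 library gave Ccr9 log2 differences from 0 to 5.64, Cish log2 differences from -0.0303 to 12.10, Ddx3y log2 from -1.13 to 0.19, Flt3 log2 from -2.32 to 2.03, Tal1 log2 from -0.0472 to 0.10 and Vwf log2 from -0.0376 to 0.27. The genotypes differ in detection, which limits the low genes.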

Other observations

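Immediate early genes, which respond within minutes to growth signals and to cell handling, varied between the V617F libraries. Of 21 tested 0 passed with edgeR, with 4 higher and 1 lower at an unadjusted p under 0.05, 1 higher by DESeq2 and 2 by limma-voom, and the median was log2 0.52. Dusp2, a phosphatase of MAP kinases, had the smallest p of the list, at 3.33, 2.77 and 2.45 CPM in WT and 17.5, 19.0 and 9.77 CPM in V617F, without overlap (log2 2.43 ± 0.58, edgeR adjusted p = 0.0564). Fos, chosen after its values were seen, stood at 27.2, 11.7 and 57.6 CPM in WT 30, 31 and 32 and at 130, 257 and 9.15 CPM in V617F 1, 2 and 3. V617F 3 was thus the lowest of all 6 and the other V617F libraries the highest. For Jun, chosen in the same way, V617F 3 was again the lowest and the other V617F libraries the highest, at 114, 87.0 and 66.9 CPM in WT and 268, 345 and 41.0 CPM in V617F. V617F 3 was also the library close to 0 for Ddx3y, and the part of either in the differences was not tested.

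Housekeeping programmes differed little. Of 38 oxidative phosphorylation genes 0 passed with edgeR, DESeq2 or limma-voom and 0 had an unadjusted p under 0.05 (median log2 0.09). The same counts held for 22 cholesterol synthesis genes (median log2 0.07). They also held for 6 dendritic cell markers, which are no housekeeping programme. The median of these markers was log2 0.80 over all 6 and -0.38 over the 3 well-measured ones. Of 20 unfolded protein response genes 0 passed with any of the 3 tools and 1 was lower at an unadjusted p under 0.05 (median log2 0.01). Of 24 cell cycle regulators and p53 targets 0 passed with edgeR, with 2 higher and 2 lower at an unadjusted p under 0.05, 1 lower by DESeq2 and 1 higher by limma-voom (median log2 0.03). Cdkn1b, the inhibitor p27, was at 6.35, 2.52 and 5.62 CPM in WT and 13.6, 17.6 and 18.2 CPM in V617F, without overlap (edgeR adjusted p = 0.283).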
